A study of Mus musculus with 8 samples.

Results

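The effect of the cannabinoid agonist HU210 on mRNA levels of Neuro2A (N2A) cells was compared between the late hours of treatment (6 h and 8 h) and the early hours (2 h and 4 h). N2A is a mouse neuroblastoma line that extends neurites, and HU210 activates the cannabinoid 1 receptor (CB1R). The comparison asks which genes answered the drug differently in the later hours than in the first hours. Serum-starved cells received 2 µM HU210 or the drug-free solvent DMSO. Polyadenylated RNA was sequenced from 8 libraries, 1 for each of the 2 treatments at each of the 4 times, and each library held RNA pooled from several independent experiments. No condition therefore has a replicate library, and all 8 libraries come from the same cell line.

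The genes were those listed with FPKM (sequenced fragments for each kilobase of a gene's transcript, relative to library size) at all 4 times, which were 15888 of 16980 Ensembl genes. The drug effect of a gene at 1 time is log2 of the HU210 value over the DMSO value, each with 1 added to the FPKM. The late-minus-early difference is the mean of the effects at 6 h and 8 h less the mean of those at 2 h and 4 h, so a difference of 1 is a doubling of the HU210 to DMSO ratio. A gene is called late-higher where both late effects lay above both early effects, and late-lower where both lay below. A change of the share of cells that express a gene and a change of its mRNA per cell cannot be told apart in such bulk RNA.

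CB1R couples to inhibitory G proteins (Gi/o) and, through kinases of the Src, Stat3 and ERK pathways, to transcription. Immediate-early genes are the first to answer such signals, and genes of membrane supply, vesicle traffic and the cytoskeleton serve the growth of neurites. The histone genes form a separate class. Most of them are replication-dependent: they lie in clusters, have no intron, are expressed when DNA is copied, and give mRNAs that end in a short stem-loop in place of a poly(A) tail. Replication-independent histone genes give ordinary polyadenylated mRNAs.

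The stem-loops of 6 histone genes with large late-minus-early differences and of 2 that overlapped, H2ac7 and H2ac12, are shown here, because this element sets the class apart from other mRNAs. They were read from the mouse genome build NCBIM37 (mm9) on the strand of the mRNA. Capitals mark the stem-loop of 16 bases (a stem of 6 base pairs and a loop of 4 bases).
H4c18 (chr13:21923662-21923687, minus strand): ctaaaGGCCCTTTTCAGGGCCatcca
H4c4 (chr13:23673814-23673839, plus strand): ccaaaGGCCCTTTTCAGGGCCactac
H2ac18 (chr3:96043702-96043727, minus strand): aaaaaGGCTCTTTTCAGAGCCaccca
H2ac19 (chr3:96049950-96049975, plus strand): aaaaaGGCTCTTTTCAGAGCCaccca
H1f5 (chr13:21871701-21871726, minus strand): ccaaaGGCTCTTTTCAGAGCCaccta
H2bc3 (chr13:23839067-23839092, plus strand): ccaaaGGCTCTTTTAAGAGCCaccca
H2ac7 (chr13:23666759-23666784, plus strand): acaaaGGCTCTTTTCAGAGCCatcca
H2ac12 (chr13:22126991-22127016, minus strand): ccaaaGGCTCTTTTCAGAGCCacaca
The pattern searched was GG, 3 pyrimidines, TT, 3 bases other than G, A, 3 purines and CC, with every stem position paired, within 150 bases on either side of the annotated gene end. It was found at 31 of 47 protein-coding replication-dependent histone genes and at 0 of the other genes among 13724 protein-coding genes examined. It was present at 27 of 38 late-higher histone genes and at 4 of 9 that overlapped, so the letters do not separate the members that differed from those that did not.

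The libraries were alike in breadth, with 11218 to 11340 genes at an FPKM of at least 1. The 4 h DMSO library stood farthest from the others, with correlations of log2 values over genes between 0.973 and 0.987, against 0.981 to 0.993 between the other libraries. Values without the 4 h effect are therefore given for the gene lists, and for a named gene where they differ over 1.5 times or in sign. The depth behind a single FPKM is unknown, since the values carry no counts. N2A markers were present: Stmn2 was at a median of 146 FPKM over the 8 libraries, Chgb at 126 and Hand2 at 77.8, while Dcx was at 0.0398. Of the markers of glia, fibroblasts, endothelium and epithelium that were listed, Mbp had the highest median, 4.44 FPKM.

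Late and early effects lay apart for many genes, and mostly with the late effect higher. Of the 15888 genes, 5449 (34.3%) were late-higher and 1987 (12.5%) were late-lower. Over the 11306 genes that averaged 1 FPKM or more, the shares were 41.5% and 13.4%, and the median late-minus-early difference was 0.12. A mean difference of at least 1.5-fold in addition was met by 932 late-higher genes (5.87% of all) and 159 late-lower genes (1%). These last counts were 556 and 142 without the 4 h effect, and 1903 and 539 without the 2 h effect. No gene passed the test of the interaction: with limma (Benjamini-Hochberg over all genes, 5%), 0% of genes were called, and the smallest adjusted p was 0.42. At an unadjusted p under 0.05, limma listed 1811 genes, 1485 with the late effect higher and 326 with it lower. With 2 effects on each side, an exact permutation test cannot give a p below 0.333, so the late-higher and late-lower classes below are descriptions.

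**Figure D1:**
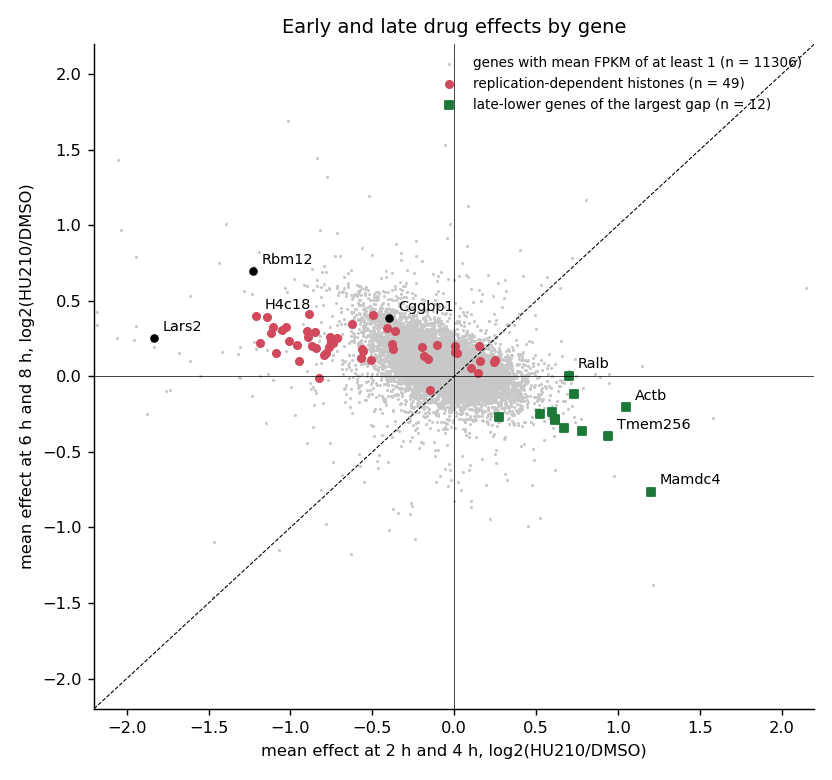
Mean drug effect at 2 h and 4 h (horizontal) against that at 6 h and 8 h (vertical) for each gene with a mean FPKM of at least 1, both as log2(HU210/DMSO). The dashed line marks equal effects. Most red points, the replication-dependent histones, lie at negative early and positive late effects, the 12 green late-lower genes lie at positive early effects, and 8 genes fall outside the axes.

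The drug effect followed the base composition of the transcripts, and differently at each hour. Over the 11306 genes, Spearman's rho between effect and GC content, given as a description across genes that share the same libraries, was 0.15 and then 0.50 in the early hours and -0.27 and then -0.14 in the late hours. For the late-minus-early difference it was -0.45. Among the 1131 genes with the lowest GC content 59.4% were late-higher and 3.54% late-lower, and among the 1131 with the highest 19.4% and 27.2%. When a fitted dependence on GC and transcript length was removed from each hour's effects, 23.7% of genes were late-higher and 25.6% late-lower. The same 2515 genes were late-higher both with and without the trend, and 1386 were late-lower both ways. Centring each hour on its median effect alone gave 2975 late-higher and 2943 late-lower genes. Both adjustments take out the typical effect of each hour, so the near balance of both directions is built into them. Values with the trend removed are given beside each gene list.

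**Figure D2:**
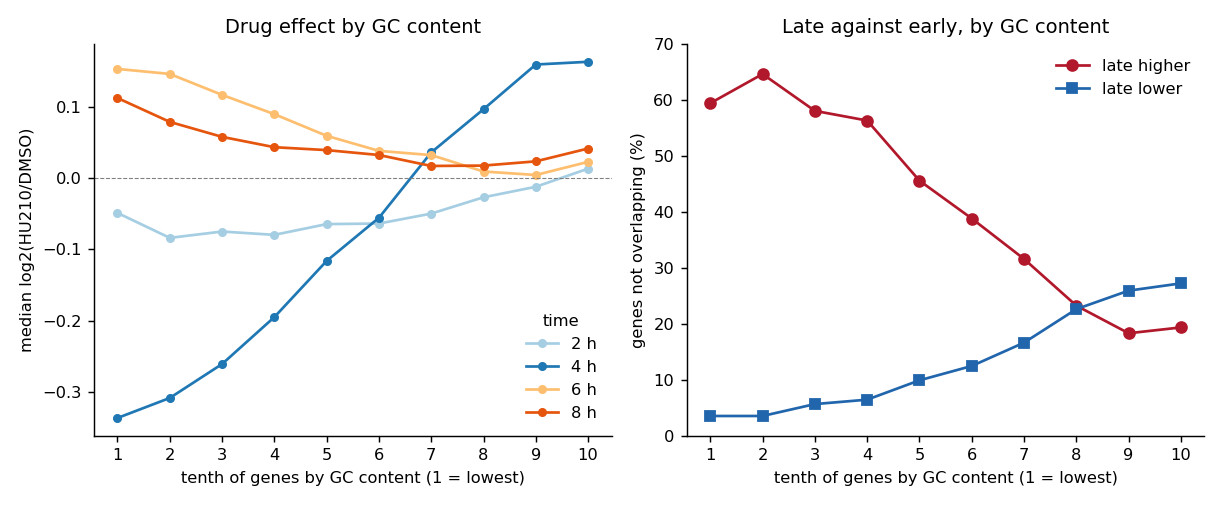
Left, median drug effect, log2(HU210/DMSO), at each hour in equal groups of the 11306 genes ordered by GC content. Right, the percent of genes that were late-higher or late-lower in each group: the 4 h line climbs from -0.34 to 0.16, and the share of late-higher genes is 59.4% in the first group and 19.4% in the last.

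The replication-dependent histones had the largest median shift of the 25 gene lists examined. All 49 such genes averaged 1 FPKM or more. Of these, 39 were late-higher, 0 were late-lower and 10 overlapped, against 41.5% and 13.4% of the 11306 genes at that level. With the GC and length trend removed, 38 were late-higher and 6 late-lower, against 23.7% and 25.6%. Their median late-minus-early difference was 0.93, compared with 0.12 over the 11306 genes, and 0.71 with the trend removed. It was 0.87 without the 4 h effect. This list was put together after their values had been seen, so its count is a description. None of its members was called by limma at 5%. An unadjusted limma p under 0.05 was met by 35 of the 49, against 1411 of the 11306 genes. HU210 was below DMSO for 46 and 39 of the 49 genes at the early hours, and above it for 46 and 45 at the late hours. The median effect over the 11306 genes had the same signs, with -0.05 and -0.08 early and 0.06 and 0.04 late. The histone medians were -0.65 and -0.62 early and 0.23 and 0.20 late. The summed FPKM of the 49 histone genes in HU210 was 0.736 and 0.765 times that in DMSO at the early hours. It was 1.18 and 1.14 times at the late hours.

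H4c18, a gene for the core histone H4 on chromosome 13 (21923636 to 21924065, minus strand, 1 exon), had the widest gap between early and late effects among the histones. Its FPKM in order of time (2, 4, 6, 8 h) was 5.56, 7.45, 16.9 and 13.7 with HU210, and 13.1, 20.1, 13.03 and 9.84 with DMSO. The HU210 libraries were lower at both early hours and higher at both late hours. The difference was 1.61 ± 0.12 (SE), with a limma adjusted p of 0.42.

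H4c4, a further H4 gene (chromosome 13, 23673467 to 23673859, plus strand, 1 exon), was the most abundant of the late-higher replication-dependent histones. Its FPKM in the same order was 13.4, 19.5, 38.9 and 36.5 with HU210, and 33.6, 38.6, 28.1 and 31.8 with DMSO. The HU210 series thus crossed the DMSO series between 4 h and 6 h, and the difference was 1.43 ± 0.17 (SE). H2ac18, which codes for histone H2A (chromosome 3, 96043639 to 96044216, minus strand), had an FPKM of 5.35, 6.22, 11.6 and 10.4 with HU210 and of 11.1, 13.3, 10.1 and 8.73 with DMSO. Its difference was 1.16 ± 0.08 (SE). H2ac19, close by on chromosome 3, differed by 1.40 ± 0.09 (SE), but its exons overlap those of the H3 gene Hist2h3c1 and it is a near-identical copy of H2ac18, so reads may have been split between them.

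The linker histone gene H1f5 (chromosome 13, 21871752 to 21872494, minus strand) had an FPKM of 3.17, 4.42, 9.79 and 6.96 with HU210 and of 8.23, 10.1, 8.08 and 6.66 with DMSO, a difference of 1.24 ± 0.12 (SE). H2bc3, for histone H2B (chromosome 13, 23838603 to 23839071, plus strand), had 4.15, 4.45, 9.88 and 8.49 with HU210 and 8.27, 11.2, 8.55 and 6.81 with DMSO, a difference of 1.24 ± 0.16 (SE). Both genes thus had their lowest values in the early HU210 libraries. The other histones among the 12 late-higher genes of the widest gap were H4c3, H4c17, H4c8 and H4c6, whose differences were 1.41, 1.19, 1.16 and 1.35. H4c6, of rank 12, was the last gene inside this limit, with a gap of 1.003.

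The histone families were unequal. All 12 H4 genes were late-higher with a median difference of 1.11, all 6 H3 genes with 0.97, all 5 H1 genes with 1.24, and 11 of 12 H2B genes with 0.73. Of 14 H2A genes only 5 were late-higher, and the other 9 overlapped, at mean levels between 9.36 and 40.6 FPKM. H2ac7 had an FPKM of 33.9, 29.6, 25.7 and 24.6 with HU210 and of 32.8, 21.3, 23.3 and 23.2 with DMSO, and H2ac22 had 26.5, 21.3, 21.2 and 17.2 with HU210 and 24.8, 15.9, 19.3 and 16.4 with DMSO. Both were higher with HU210 at every hour, and their differences were -0.14 and -0.15. Without the 4 h effect the differences were 0.061 and 0.0067. Some genes of a family are near-identical copies, such as H2ac18 and H2ac19, so a level of 1 member may hold reads of another.

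**Figure D3:**
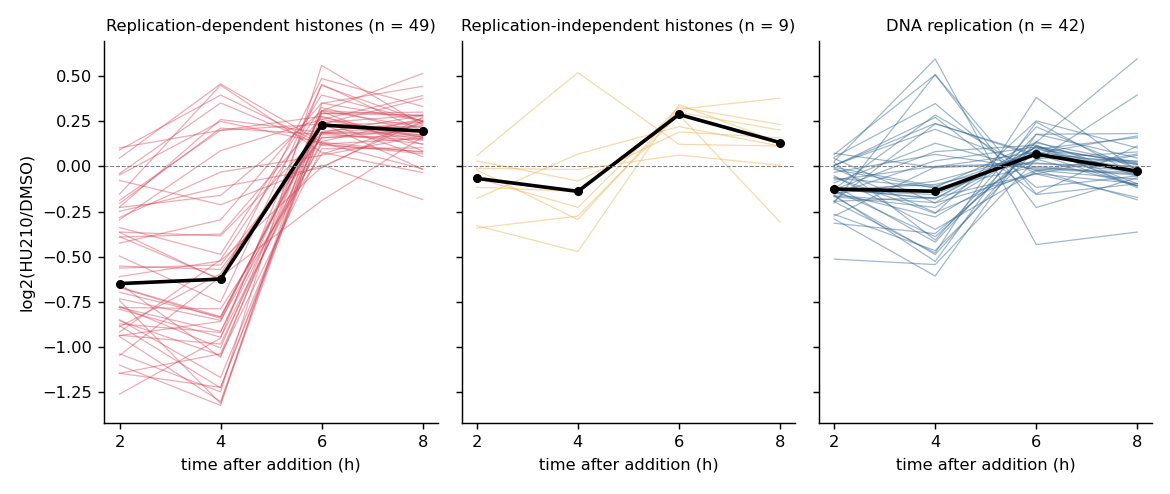
Drug effect, log2(HU210/DMSO), against time for each gene (thin lines) and the median of the list (black line) for 49 replication-dependent histones, 9 replication-independent histones and 42 DNA replication genes. The median of the first list lies at -0.65 and -0.62 at 2 h and 4 h and at 0.23 and 0.20 at 6 h and 8 h.

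The replication-independent histones and the DNA replication machinery shifted less. Of 9 replication-independent histone genes, 7 were late-higher (77.8%, against 41.5% of the 11306 genes) and 0 late-lower, with a median difference of 0.30. With the trend removed 4 were late-higher and 1 late-lower, with a median of 0.14, and without the 4 h effect the median was 0.34. H3f3b, which codes for the variant H3.3, had an FPKM of 509, 495, 557 and 511 with HU210 and of 639.9, 686, 439 and 466 with DMSO, a difference of 0.64 ± 0.16 (SE). For H2az1, the variant H2A.Z, the difference was 0.50 ± 0.12 (SE), while H2aj overlapped at -0.17, or 0.058 without the 4 h effect. In H3f3b it was the DMSO series that moved, by -0.55 from early to late, against 0.09 for HU210. Of 42 DNA replication genes, 21 were late-higher and 4 late-lower, against 41.5% and 13.4% of the 11306 genes, with a median difference of 0.13 that was also 0.13 without the 4 h effect. Once the trend was removed, 6 were late-higher and 13 late-lower, with a median of -0.03. Gins1, a subunit of the replicative helicase complex, differed by 0.63 ± 0.14 (SE), and Fen1, the nuclease that trims Okazaki fragments, by -0.71 ± 0.24 (SE), or -0.43 without the 4 h effect.

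Small RNAs, which lack a poly(A) tail too, were unequal. The summed FPKM of 258 miRNA genes was 144.4 with HU210 and 143.4 with DMSO at 2 h, and 158.8 and 173.1 at 4 h, while the classes that follow were lower with HU210 at both early hours. The summed FPKM of 404 snoRNA genes was 2118, 1358, 4240 and 2618 with HU210 and 3489, 3473, 4032 and 2055 with DMSO. Their median FPKM was 0 in every library, so the sum rests on part of the class. Of 113 that averaged 1 FPKM or more, 51 (45.1%) were late-higher and 14 late-lower, near the 41.5% and 13.4% of the 11306 genes. With the trend removed these counts were 33 and 30, with a median difference of -0.10. The summed FPKM of 247 snRNA genes was 62.3, 35.6, 141 and 86.9 with HU210 and 128, 134, 171 and 86.6 with DMSO. Only 4 snRNA genes averaged 1 FPKM or more, with a median difference of 1.27, or 0.76 with the trend removed. The authors selected cDNA fragments by size, so the FPKM of such short genes is uncertain. Rmrp, the RNA of the ribonuclease MRP particle, had an FPKM of 369, 206, 631 and 541 with HU210 and of 609, 769, 597 and 579 with DMSO, and its difference was 1.302 ± 0.50 (SE), or 0.71 without the 4 h effect. Rprl3, annotated as a small structural RNA as well, had 33.9, 13.2, 50.4 and 29.9 with HU210 and 43.7, 34.7, 61.4 and 28.7 with DMSO, a difference of 0.74 ± 0.43 (SE), or 0.25 without the 4 h effect. Both were chosen after their values were seen. How far RNA without a poly(A) tail was carried through the selection of mRNA in each library, and its part in the histone result, was not tested.

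The promoter of H2bc3 is given as an example of a late-higher histone gene (RefSeq, build GRCm38.p6, chr13:23746484-23746783, plus strand, 250 bases before to 50 after the start). Capitals mark CCAAT or its reverse complement ATTGG, the octamer ATTTGCAT, and TATAAA. This promoter held 5 such motifs, and histone promoters differed. That of H4c18, of the same length, held 1, a TATAAA, with no CCAAT and no octamer.
H2bc3 promoter: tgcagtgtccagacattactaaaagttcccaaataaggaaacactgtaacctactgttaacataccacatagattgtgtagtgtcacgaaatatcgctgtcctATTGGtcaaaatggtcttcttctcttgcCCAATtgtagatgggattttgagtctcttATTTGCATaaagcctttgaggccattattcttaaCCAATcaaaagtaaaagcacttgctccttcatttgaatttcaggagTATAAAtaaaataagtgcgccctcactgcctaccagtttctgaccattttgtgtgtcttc
Of 44 replication-dependent histone genes with a RefSeq promoter, 81.8% held CCAAT, 63.6% TATAAA and 22.7% ATTTGCAT on either strand. The shares were 44.25%, 8.21% and 1.57% of the 8614 genes with such a promoter and a mean FPKM of at least 1. These 3 motifs were chosen after the values were seen.

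The motifs of 5 signal-responsive factors were searched on both strands in the 8614 promoters of genes with a mean FPKM of at least 1, and the shares were not tested. GCGNGGGCG (Egr) was in 18.9% of 639 promoters of late-higher genes with a 1.5-fold difference, in 13.2% of 76 of such late-lower genes and in 12.5% of the 8614. TGACGTCA (CRE) was in 4.38%, 1.32% and 3.89%, and TTCCNGGAA (Stat) in 0.939%, 1.32% and 1.54%. TACGTG (hypoxia) was in 4.70%, 9.21% and 4.52%, and CCGGAAGT (Ets) in 8.76%, 5.26% and 10.1%.

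The widest late-higher gap of the named genes was that of Lars2, the mitochondrial leucyl-tRNA synthetase (chromosome 9, 123276058 to 123371782, plus strand). It was 1.60, ahead of H4c18 with 1.45. Lars2 averaged 1105 FPKM over all libraries, and whether all of its reads came from Lars2 mRNA was not tested. Its FPKM was 355, 438, 1506 and 1193 with HU210 and 906, 2183, 1257 and 1002 with DMSO. The early HU210 libraries were far below all others and the 4 h DMSO library far above. The difference was 2.09 ± 0.43 (SE), with a limma adjusted p of 0.42, and 1.61 without the 4 h effect. Rbm12, an RNA-binding protein gene (chromosome 2, 155917694 to 155937714, minus strand), had an FPKM of 12.5, 11.5, 19.4 and 28.5 with HU210 and of 24.2, 36.0, 15.7 and 12.7 with DMSO. The treatments were thus ordered oppositely early and late, and the difference was 1.93 ± 0.43 (SE). Rbm12 shares exons with Cpne1 and Nfs1 on the same strand, so its level is uncertain.

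The genes with the smallest limma p had early effects that were nearly equal to each other and late effects that were nearly equal as well. Cggbp1, which codes for a protein that binds CGG repeats (chromosome 16, 64851822 to 64859333, plus strand), had an FPKM of 27.4, 32.7, 38.9 and 43.3 with HU210 and of 36.7, 43.2, 29.8 and 32.5 with DMSO. Its effects were -0.40, -0.39, 0.37 and 0.40, a difference of 0.79 ± 0.05 (SE) with a limma adjusted p of 0.42. Eif3j2, for a subunit of translation initiation factor 3, differed by 0.89 ± 0.06 (SE), Ndufc1, for a subunit of respiratory complex I, by 0.81 ± 0.05 (SE), and Sap18, of the Sin3 histone deacetylase complex, by 0.73 ± 0.05 (SE). Uchl3, a ubiquitin hydrolase, differed by 0.72 ± 0.05 (SE). These 5 genes had a low GC content of 39.2% to 46.5%, and with the trend removed their differences were 0.44 for Cggbp1, 0.60 for Eif3j2, 0.59 for Ndufc1, 0.48 for Sap18 and 0.48 for Uchl3. The remaining 5 of the 10 smallest p values belonged to H2ac19, H2ac18, H4c17, H4c18 and Ralb.

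Among the late-lower genes, Mamdc4 had the widest gap (chromosome 2, 25418635 to 25430365, minus strand). Its FPKM was 12.5, 18.3, 7.92 and 11.3 with HU210 and 7.99, 4.48, 14.3 and 19.5 with DMSO. HU210 was higher at both early hours and lower at both late hours, and the difference was -1.96 ± 0.51 (SE). Mamdc4 overlaps exons of Phpt1 on the same strand, and without the 4 h effect its difference was -1.35.

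Actb, the gene for cytoplasmic β-actin, the main subunit of the actin filaments of the growth cone (chromosome 5, 143664794 to 143668433, minus strand), followed with an FPKM of 4827, 5793, 3378 and 3447 with HU210 and of 2656, 2464, 3332 and 4631 with DMSO. The treatments lay far apart at 2 h and 4 h, were nearly equal at 6 h and lay in the opposite order at 8 h. The difference was -1.25 ± 0.60 (SE), with a limma adjusted p of 0.46, and -1.06 without the 4 h effect. The DMSO and HU210 series contributed alike, moving by 0.62 and -0.63 from early to late.

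Ralb, a small GTPase that acts with the exocyst in the delivery of vesicles to the membrane (chromosome 1, 121366882 to 121401371, minus strand), had the steadiest pattern. Its FPKM was 23.9, 21.7, 16.6 and 17.3 with HU210 and 14.3, 12.99, 16.6 and 17.1 with DMSO. The effects at 2 h and 4 h were both 0.70, and those at 6 h and 8 h were -0.0035 and 0.014, a difference of -0.69 ± 0.05 (SE) with a limma adjusted p of 0.42. It was -0.83 with the trend removed and -0.70 without the 4 h effect.

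The other late-lower genes of the widest gap were of mixed function. They were Telo2, which stabilises kinases such as mTOR and ATM, with a difference of -0.89 ± 0.18 (SE), the small heat shock protein gene Hspb6 with -1.14, the GDP-mannose enzyme gene Gmppb with -1.01, the phosphatase gene Ppm1m with -0.83, the calcium channel regulator Cbarp with -0.77 and Tmem256 with -1.34. Without the 4 h effect Hspb6 and Gmppb came to -0.72 and -0.65. The pseudogenes Mnd1-ps, Gm11598 and Gm14373 differed by -0.85, -0.91 and -0.54. Tmem256 depended in part on 1 library, since its FPKM was 39.2 in the 4 h DMSO library and 63.4 to 122 in all others. Its difference was -0.67 without the 4 h effect, and its shift from early to late was -0.77 in HU210 and 0.57 in DMSO. Hspb6, Gmppb and Cbarp overlap exons of other genes, and the counting was not stated to use strand. Cbarp was of rank 12 with a gap of 0.50, and Gchfr of rank 13 with 0.48.

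**Figure D4:**
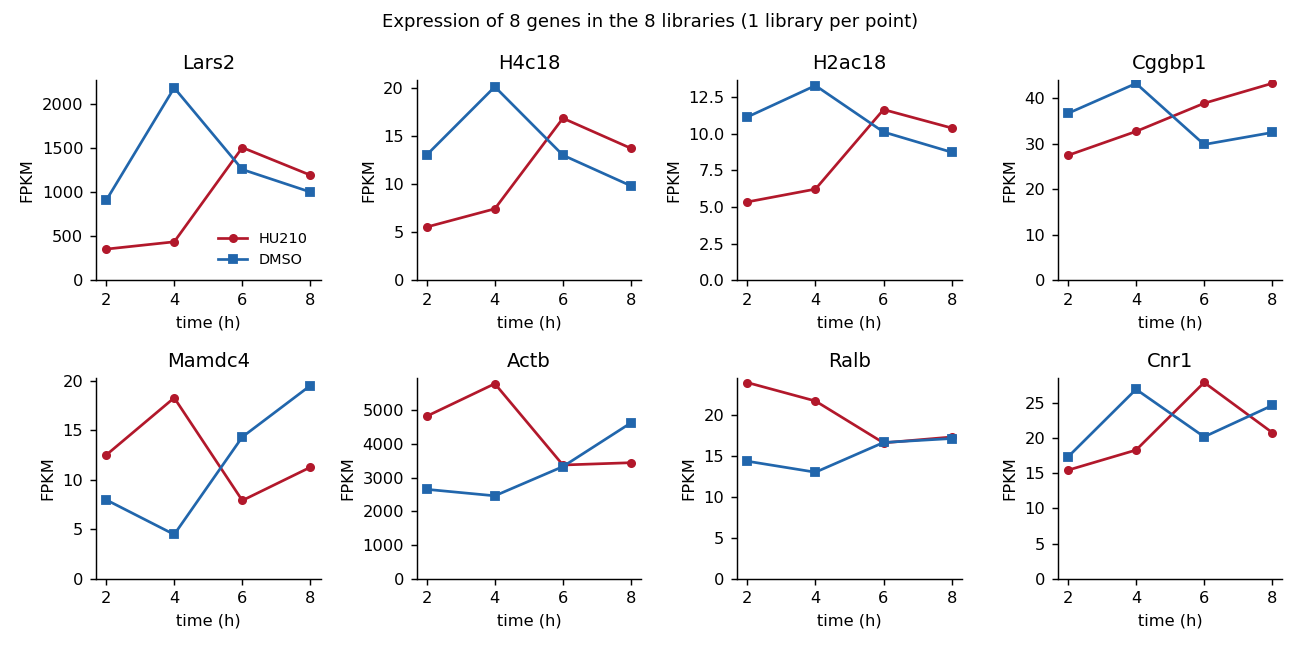
FPKM (vertical, starting at 0) against time for Lars2, H4c18, H2ac18, Cggbp1, Mamdc4, Actb, Ralb and Cnr1 in HU210 (red circles) and DMSO (blue squares), 1 library per point. The 2 series cross between 4 h and 6 h in the upper row and in Mamdc4, and meet at 6 h and 8 h in Ralb.

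The gene lists that follow are described over the members that averaged 1 FPKM or more, to be read against 41.5% late-higher and 13.4% late-lower among the 11306 such genes, with a median difference of 0.12, or 0.10 without the 4 h effect. After removal of the trend, those shares were 23.7% and 25.6%, and the median -0.02. Of 34 chaperone genes, 33 averaged 1 FPKM or more, of which 24 (72.7%) were late-higher and 1 late-lower, with a median of 0.32, or 0.24 without the 4 h effect. After removal of the trend, 14 were late-higher and 6 late-lower, and the median was 0.09. Hspe1, the mitochondrial co-chaperone Hsp10, had an FPKM of 78.5, 55.6, 93.0 and 78.4 with HU210 and of 89.4, 158, 62.9 and 47.3 with DMSO. The 4 h DMSO value was the highest of the 8, and HU210 was higher only at the late hours. Its difference was 1.47 ± 0.54 (SE), and 0.82 without the 4 h effect. Its partner Hspd1 (Hsp60) differed by 1.15 ± 0.44 (SE), and 0.71 without it. Hspd1 and Hspe1 are neighbours with overlapping exons on opposite strands. Hspa8, the constitutive Hsp70, overlapped with a difference of -0.09, or 0.083 without the 4 h effect, and the late-lower member was Cct3, a subunit of the TRiC chaperonin, with -0.37, or -0.14 without it.

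Rab GTPases direct vesicle traffic, which the growth of neurites draws on. Of 46 Rab genes, 39 averaged 1 FPKM or more, of which 25 (64.1%) were late-higher and 2 late-lower, with a median of 0.36, or 0.22 without the 4 h effect. With the trend removed 22 were late-higher and 7 late-lower, and the median was 0.11. Rab5a, which acts in early endosomes, had an FPKM of 11.7, 10.2, 16.6 and 14.6 with HU210 and of 14.9, 18.9, 9.39 and 10.5 with DMSO, a difference of 1.18 ± 0.26 (SE). Rab6a, of Golgi traffic, differed by 0.94 ± 0.17 (SE), and Rab5c by -0.33 ± 0.09 (SE), so members of the Rab5 group lay on opposite sides. Both Rab5a and Rab6a have exons that overlap a gene on the opposite strand.

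Ganglioside synthesis genes make the sialic acid lipids of neuronal membranes. Of 10 such genes, 9 averaged 1 FPKM or more, of which 5 (55.6%) were late-higher and 0 late-lower, with a median of 0.43, or 0.32 without the 4 h effect. Once the trend was removed, 4 were late-higher and 0 late-lower, and the median was 0.29. Ugcg, whose enzyme adds the first sugar to ceramide, had an FPKM of 10.9, 7.90, 16.1 and 14.95 with HU210 and of 11.6, 21.4, 9.39 and 11.1 with DMSO. Its difference was 1.26 ± 0.53 (SE), and 0.64 without the 4 h effect. B4galt6, which adds the next sugar, differed by 0.96 ± 0.33 (SE), and the sialyltransferase gene St8sia3 by 0.99 ± 0.52 (SE), or 0.57 and 0.36 without the 4 h effect.

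The same was counted for the other traffic and cytoskeleton lists. Of 14 genes of tubular endoplasmic reticulum, 13 averaged 1 FPKM or more, of which 8 (61.5%) were late-higher and 1 late-lower, with a median of 0.27, or 0.14 without the 4 h effect and 0.10 with the trend removed. All 19 microtubule plus-end genes did, of which 9 (47.4%) were late-higher and 1 late-lower, with a median of 0.26, or 0.13 and 0.08 under the same settings. For 31 of 33 sorting nexin and retromer genes the counts were 16 and 4, with a median of 0.19, or 0.12 and 0.0064. For 43 of 47 motor genes of the kinesin, dynein and dynactin groups they were 21 and 5, with a median of 0.16, or 0.09 and -0.01, and for all 27 COPI and COPII coat genes 13 and 6, with a median of 0.07, or 0.06 and -0.04. Rtn4, a reticulon that shapes tubular endoplasmic reticulum, had an FPKM of 87.4, 74.1, 142 and 128 with HU210 and of 104, 202, 78.5 and 100.2 with DMSO, a difference of 1.44 ± 0.53 (SE) that was 0.84 without the 4 h effect. The differences of Snx3, a sorting nexin of the retromer, and of Mapre1, which tracks growing microtubule ends, were 1.13 ± 0.28 (SE) and 0.90 ± 0.26 (SE).

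Of 27 growth cone and neurofilament genes, 25 averaged 1 FPKM or more, of which 13 (52.0%) were late-higher and 2 late-lower, with a median of 0.18, or 0.20 without the 4 h effect. After removal of the trend, 11 were late-higher and 4 late-lower, and the median was 0.08. Map2, which binds microtubules in dendrites, had an FPKM of 7.48, 7.14, 9.44 and 11.5 with HU210 and of 8.80, 10.0, 7.69 and 7.89 with DMSO, a difference of 0.70 ± 0.15 (SE). The membrane protein genes Marcks and Gap43 differed by 0.98 ± 0.35 (SE), or 0.62 without the 4 h effect, and 0.52 ± 0.15 (SE), and the neurofilament gene Ina by 0.63 ± 0.14 (SE). The transcription factor gene Hand2, which specifies sympathetic neurons, differed by 0.73 ± 0.19 (SE), and by 0.77 with the trend removed. HU210 was below DMSO at 2 h and 4 h and above it at 6 h and 8 h for Map2, Marcks, Ina and Hand2.

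Of 33 immediate-early genes, 30 averaged 1 FPKM or more, of which 8 (26.7%) were late-higher and 5 late-lower, with a median of 0.07, or -0.06 without the 4 h effect. After removal of the trend, the counts were 8 and 5 again, and the median was 0.0087. Arc, a regulator of synapses, had an FPKM of 11.7, 10.995, 9.31 and 10.0 with HU210 and of 7.40, 7.05, 10.6 and 8.10 with DMSO. HU210 was higher at 2 h, 4 h and 8 h and lower at 6 h, and the difference was -0.53 ± 0.20 (SE). The effect was also below 0 at 6 h alone for Junb, Egr3 and Egr1. Junb and Egr3 were late-lower with differences of -0.52 ± 0.18 (SE) and -0.86 ± 0.50 (SE). Egr3 averaged only 1.15 FPKM, had a gap of 0.044 and overlapped once the trend was removed. Egr1, a zinc finger transcription factor, had an FPKM of 36.8, 24.3, 19.2 and 32.2 with HU210 and of 18.3, 18.8, 27.0 and 18.9 with DMSO, and its late effects of -0.47 and 0.74 overlapped the early effects of 0.97 and 0.35. Its difference of -0.53 was 0.076 without the 6 h effect and -0.83 without the 4 h effect. Dusp6, a phosphatase that dampens ERK, was late-lower with -0.42 ± 0.25 (SE), and of 17 ERK feedback regulators 16 averaged 1 FPKM or more, of which 7 were late-higher and 2 late-lower, with a median of 0.12, or 0.0037 without the 4 h effect. With the trend removed 4 were late-higher and 3 late-lower, and the median was 0.04. Mcl1, an anti-apoptotic immediate-early gene, lay on the other side with 0.97 ± 0.31 (SE), or 0.60 without the 4 h effect. Limma called none of the members of these lists.

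Cnr1, which codes for CB1R itself (chromosome 4, 34011568 to 34035806, plus strand), had an FPKM of 15.5, 18.3, 27.9 and 20.8 with HU210 and of 17.3, 27.0, 20.2 and 24.7 with DMSO. HU210 was higher at 6 h and lower at the other hours, so late and early effects overlapped, and the difference of 0.45 ± 0.32 (SE), or 0.26 without the 4 h effect, had a limma adjusted p of 0.57. Of 15 genes of cannabinoid receptors, their G proteins and endocannabinoid enzymes, 13 averaged 1 FPKM or more, of which 6 were late-higher and 1 late-lower, with a median of 0.11. Once the trend was removed, 2 lay on each side and the median was 0.02, and without the 4 h effect it was 0.13. Gnai3, an inhibitory G protein subunit, differed by 0.63 ± 0.25 (SE), and by 0.35 without the 4 h effect.

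The ribosomal protein genes, often taken to move as a block, were split. Of 79 genes, 29 were late-higher and 20 late-lower, with a median of -0.01 that was 0.13 without the 4 h effect. After removal of the trend, 20 were late-higher and 28 late-lower, and the median was -0.11. Rps16 had an FPKM of 124, 88.9, 167 and 116 with HU210 and of 149, 142, 115 and 77.2 with DMSO, a difference of 1.02 ± 0.17 (SE). Rps14 had 633, 816, 527 and 476 with HU210 and 583, 318, 750.4 and 507 with DMSO, a difference of -1.04 ± 0.55 (SE) in the opposite direction, or -0.42 without the 4 h effect. Rpl39 differed by 1.32 ± 0.76 (SE), or 0.43 without the 4 h effect. Processed pseudogenes share the sequences of these genes, so reads may have been split.

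Of 74 nuclear genes of oxidative phosphorylation, 30 (40.5%) were late-higher and 9 late-lower, with a median of 0.08, or 0.18 without the 4 h effect. After removal of the trend, 14 were late-higher and 19 late-lower, and the median was -0.05. Uqcrb, of complex III, differed by 0.70 ± 0.06 (SE). Cox5a and Cox7c, both of complex IV, lay on opposite sides with 1.01 ± 0.40 (SE) and -0.84 ± 0.28 (SE), or 0.53 and -0.51 without the 4 h effect.

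The CCR4-NOT complex shortens poly(A) tails. Of its 14 genes 8 (57.1%) were late-higher and 2 late-lower, with a median of 0.34, or 0.15 without the 4 h effect. With the trend removed 5 were late-higher and 4 late-lower, and the median was 0.11. Cnot6, a deadenylase, differed by 1.08 ± 0.40 (SE), or 0.62 without the 4 h effect, and Cnot11 by 0.86 ± 0.22 (SE).

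Late-higher and late-lower members were 17 and 3 of 41 core spliceosome genes, with a median of 0.08, or 0.10 without the 4 h effect and -0.0054 with the trend removed. They were 16 and 5 of 36 proteasome genes, with a median of 0.14, or 0.15 and -0.0076 under the same settings. Of 23 circadian clock genes 20 averaged 1 FPKM or more, of which 12 (60.0%) were late-higher and 2 late-lower, with a median of 0.19, or 0.10 and 0.07. Of 26 hypoxia-inducible genes 23 did, with 11 late-higher and 6 late-lower and a median of 0.25, or 0.14 and -0.02.

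Glycolysis, sterol synthesis and the Atf4 stress response had the lowest shares of late-higher members of the 25 lists. The counts were 2 late-higher and 5 late-lower of 18 glycolysis genes, with a median of -0.15, or 0.07 without the 4 h effect and -0.18 with the trend removed. Of 23 sterol synthesis genes 22 averaged 1 FPKM or more, with 4 late-higher and 6 late-lower and a median of -0.03, or -0.04 and -0.10 under the same settings. Of 24 Atf4 stress genes 5 lay on each side, with a median of -0.02, or 0.05 and -0.09. The enolase genes Eno1 and Eno2 differed by -0.32 ± 0.21 (SE) and -0.49 ± 0.31 (SE), or -0.11 and -0.12 without the 4 h effect, and Pgam1, a neighbouring step, by 0.34 ± 0.06 (SE). Fdps, which makes farnesyl pyrophosphate, differed by -0.53 ± 0.18 (SE).

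**Figure D5:**
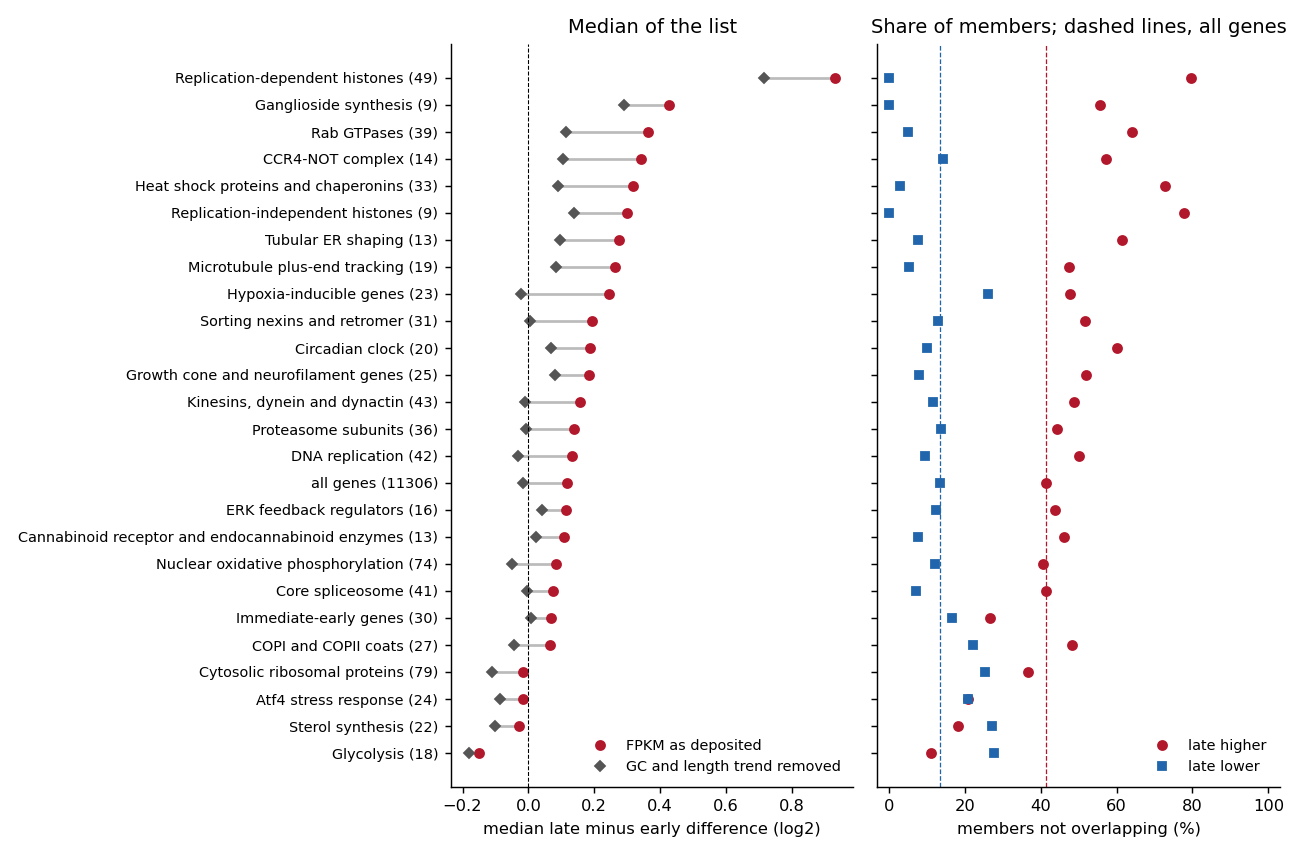
Left, median late-minus-early difference (log2) of each list, over those of its genes that averaged 1 FPKM or more (number in parentheses), from FPKM as deposited (red) and after the GC and length correction (grey). Right, the percent of these members that were late-higher (red) or late-lower (blue), with dashed lines at 41.5% and 13.4% for all genes. The replication-dependent histones stand at the top in the left panel, at 0.93 and 0.71.

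A late-minus-early difference is the shift of HU210 from early to late less that of DMSO. Among the 903 late-higher genes with a 1.5-fold difference that averaged 1 FPKM or more, the median shift from early to late was 0.37 in HU210 and -0.42 in DMSO, and the HU210 shift was the larger for 385 of them. The histones lay on the other side, with a median of 0.61 in HU210 and -0.26 in DMSO, and the HU210 shift was the larger for 40 of the 49. Of the 903 genes, 707 had their strongest effect at 4 h and 764 had HU210 below DMSO at both early hours and above it at both late hours. Among the 136 late-lower genes of this size, the shifts were -0.37 in HU210 and 0.36 in DMSO.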

How the data were processed

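Per the labels and the study's methods, the authors mapped reads with TopHat2 2.0.8, Bowtie2 2.1.0 and SAMtools 0.1.7 to mm9 with Ensembl models, without a search for new junctions, and computed FPKM with Cufflinks and Cuffdiff (multiread and fragment-bias correction, upper-quartile normalization). The deposited values are FPKM with 1 added, which was subtracted here. The authors' own log2 fold changes, p-values and q-values of single hours, deposited beside them, and their table of called genes were not used. The Cufflinks version is not given in the sources used here. Multiread and bias correction can move reads between gene copies and with GC content.

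Late-minus-early differences were tested with limma 3.58.1 in R 4.3.3 (lmFit, eBayes with trend) on log2(FPKM + 1), with terms for time, treatment and treatment by late, 2 residual degrees of freedom, two-sided, with Benjamini-Hochberg adjustment over 15888 genes. Hours of a side stood in for replicates, so the spread includes true change between them. A loess trend on GC content and log length (span 0.3, degree 1) was removed as an alternative. The 6 symbols that pair with more than 1 Ensembl ID were kept by ID. Exons, lengths and GC content came from GENCODE vM1 (mm9), which held all 15888 genes. Python 3.11.15, numpy 2.4.6, pandas 2.3.3 and matplotlib 3.10.9 were used, and the fit was tested on simulated data.

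Genes named are the 12 in each direction with the widest gap between the nearest late and early effects (mean FPKM of at least 5, transcript of at least 300 bases), the 10 with the smallest p under the same filters, members of the gene lists and markers, and Cnr1. The comparison and the lists were chosen with earlier results of these data known, and which list members appear was decided with those values in view. Some items are not reported here. Alternatives were a pseudocount of 0.1, filters on low FPKM, median centring, the GC and length trend, the mean of the DMSO libraries as reference, other thresholds, no variance trend, unpaired libraries and leaving out each hour.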

Additional observations from a re-analysis of the deposited data

Results flagged for a closer look

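For 54 of the 76 genes named, both early effects lay on one side of 0 and both late effects on the other, 40 with HU210 above DMSO late and 14 with it below. This reversal of sign was not tested by itself, and limma called none of the differences. Over all 15888 genes such a reversal was seen for 3156 with HU210 above DMSO late and 759 with it below. The named genes were chosen by their gap, their p or with values in view, so their count reflects that choice. The values are late-minus-early differences on the log2 scale.

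Histone genes with HU210 above DMSO only late were H4c18 (1.61), H2ac19 (1.40), H4c3 (1.41), H4c17 (1.19), H4c4 (1.43), H2ac18 (1.16), H1f5 (1.24), H4c8 (1.16), H2bc3 (1.24), H4c6 (1.35), H3f3b (0.64) and H2az1 (0.50). In RNA handling and translation they were Lars2 (2.09), Rbm12 (1.93), Eif3j2 (0.89), Cnot6 (1.08), Cnot11 (0.86) and Rps16 (1.02). In energy metabolism and proteostasis they were Ndufc1 (0.81), Uqcrb (0.70), Cox5a (1.01), Pgam1 (0.34), Hspe1 (1.47) and Uchl3 (0.72). In membranes and traffic they were Rab5a (1.18), Rab6a (0.94), Ugcg (1.26), B4galt6 (0.96), Rtn4 (1.44), Snx3 (1.13) and Mapre1 (0.90). In signalling, chromatin and neuronal function they were Cggbp1 (0.79), Sap18 (0.73), Mcl1 (0.97), Map2 (0.70), Marcks (0.98), Ina (0.63), Hand2 (0.73), Gins1 (0.63) and Gnai3 (0.63).

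Genes with HU210 below DMSO only late were Mamdc4 (-1.96), Mnd1-ps (-0.85), Gm11598 (-0.91), Telo2 (-0.89), Hspb6 (-1.14), Tmem256 (-1.34), Gmppb (-1.01), Gm14373 (-0.54), Ppm1m (-0.83), Cbarp (-0.77), Rps14 (-1.04), Cox7c (-0.84), Fen1 (-0.71) and Eno2 (-0.49).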

How the results depend on the processing

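The labels give no replicate numbers, and the limma fit paired HU210 with DMSO by hour. Limma called 0 genes under most alternatives, 3 with the GC and length trend removed (Gm22573, Gm26064 and Gm25973, small RNA genes under 1 FPKM), 7 with libraries not paired by hour, and 0 to 19 with an hour left out, 19 without 8 h. Late-higher genes numbered 3456 with the trend removed in all genes, and 2682 with it removed and 2975 median centred at a mean FPKM of at least 1, with 7091 to 7631 when an hour was left out. The combinations with a mean FPKM of at least 1 were chosen after seeing the data. Late-lower genes numbered 4179 median centred, 4801 with the trend removed, and 3168 to 4598 with an hour left out. With a 1.5-fold difference, late-higher and late-lower genes numbered 1432 and 369 with a pseudocount of 0.1, 515 and 254 with the trend removed, 407 and 241 with it removed at a mean FPKM of at least 1, 550 and 279 median centred at that level, and 203 and 36 against the mean DMSO. They were 2157 and 464 at 1.3-fold, 196 and 27 at 2-fold, and 556 to 1903 and 142 to 539 with an hour left out, with the lowest values without 4 h and the highest without 2 h. Leaving out an hour leaves fewer effects to overlap. The differences of 6 named genes changed sign: Hspa8 to 0.33 and H2az1 to -0.11 against the mean DMSO, and 5 with an hour left out, Hspa8 (range -0.26 to 0.083), H2aj (-0.40 to 0.058), H2ac7 (-0.35 to 0.061) and H2ac22 (-0.30 to 0.0067), all above 0 without 4 h, and Egr1 (-1.13 to 0.076), above 0 without 6 h. None of the genes chosen by gap or p did. The median of 21 of 25 lists lay above 0, and of 14 with the trend removed. The cause of these shifts was not tested.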
